A study of Mus musculus with 6 samples.

Results

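Rev-erbα sites in mouse liver that crowd together on the chromosome were examined: peaks that lie in a chain of at least 3, where the starts of consecutive peaks on a chromosome differ by less than 10 kb. Of the 11767 peaks of a pooled list called at zeitgeber time (ZT) 10, 1029 peaks (8.74%) met this rule, and they formed 315 chains. No member was filtered out. The members were chosen by their positions alone, so their number, spacing and span describe the choice and were not tested. The label of dense clusters holds in the sense of the rule only, because 43.3% of the 714 gaps within chains were 5 kb or longer.

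The series comprises 6 chromatin immunoprecipitation sequencing (ChIP-seq) samples of liver from male mice of strain C57B/6, 12 weeks old, fed normal chow under a light and dark schedule. The labels give 3 samples the genotype WT and 3 the genotype HNF6 KO, and every sample was taken at ZT10 with the same Rev-erbα antibody. How HNF6 was depleted, and in which cells, is not given in the sources used here. The processed data are 2 peak lists that name no sample, so binding in WT and HNF6 KO livers was not compared, no spread between livers exists and the depth of each sample is unknown. By its name the second list covers sites independent of a DBD, the part of a nuclear receptor that contacts DNA. Its peaks are called DBD-independent below after that name, although no sample was labelled as carrying an altered DBD. ZT10 peaks absent from that list form the other kind of site below in that sense only. How peaks were selected for it is not given in the sources used here, so absence was not read as binding through the DBD.

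Rev-erbα is a nuclear receptor of the circadian clock that represses transcription by recruiting a corepressor complex that contains histone deacetylase 3. It reaches chromatin either by its own DNA-binding domain (DBD), at DNA elements it shares with the ROR receptors, or through other factors already bound there. HNF6, a Onecut family factor of hepatocytes, is known as such a partner in liver. Several binding sites close together are a familiar arrangement at genes that define a cell type. Gene names, exon or intron annotation and peak sequences are not given, because the peaks are in mouse build mm9 and no mm9 genome or annotation was used here.

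The ZT10 list holds no score, and its order is the only hint of strength for most members. This order proved to be made of 129 runs. Within a run, peaks stood in text order of chromosome and start, and only 128 of 11766 consecutive pairs (1.09%) broke that order. Runs were short at the head of the list and long at its end, where the last run held 994 peaks, and 96.7% of all peaks stood in runs of at least 20. Positions inside a run therefore follow chromosome and start. Positions are given below as they stand in the list, and an order between peaks of the same run is no order of strength. Across the 345 DBD-independent members, Spearman's rho between position and the first of the 2 values deposited with each such peak was -0.95. That correlation is a description over peaks, which are no replicates. Whether the order of the list and the first value rest on the same samples is not given in the sources used here. For the other 684 members the list gives no such value.

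Most chains were short. There were 252 chains of 3 peaks, 47 of 4, 13 of 5, 2 of 6 and 1 of 8. The median span was 8.81 kb for chains of 3, 13.8 kb for chains of 4 and 17.8 kb for chains of 5. Over all 315 chains the span ran from 0.68 to 33.1 kb around a median of 9.75 kb, and together they covered 3.12 Mb. Neighbouring starts within a chain were 3982 bp apart at the median (quartiles 1288.2 and 7072 bp), and 145 gaps (20.3%) were under 1 kb. The widest gaps just inside the rule were 9993 bp and 9963 bp on chromosome 2 and 9981 bp on chromosome 8. The narrowest gaps that kept a chain of 3 or more from forming were 10013 bp on chromosome 14, 10038 bp on chromosome 8 and 10085 bp on chromosome 7.

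Members stood nearer the head of the ZT10 list than other peaks. Their median position was 4448 (quartiles 2205 and 7207), against 6033.5 for the 10738 peaks outside such chains and 5884 for the whole list. Read by runs, the median was run 115 for members and run 120 for the others. The median position was 6339.5 for peaks that stood alone, 5151.5 for peaks in chains of 2, 4496.5 in chains of 3, 4331 in chains of 4 and 4257 in chains of 5 or more. The quartile ranges of these groups overlap widely. The last 10 runs held 37.2% of the members and 52% of the other peaks. No test was made, since peaks of a chain share their surroundings and peaks are no replicates of a condition.

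**Figure D1:**
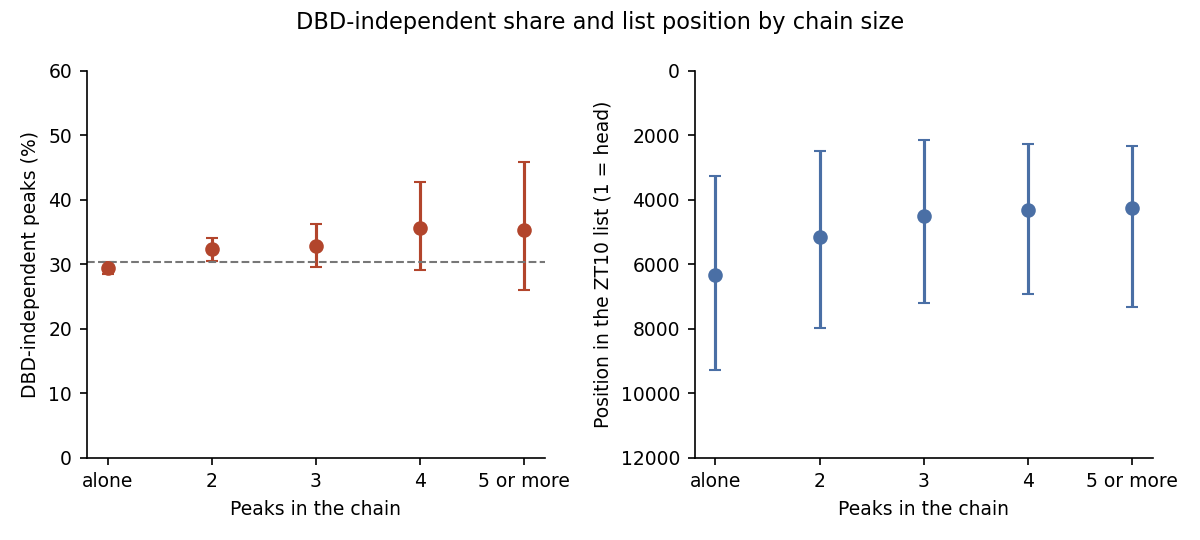
Left, the share of peaks that are DBD-independent (%, points, with 95% Wilson intervals) by the number of peaks in the chain, with the share over all ZT10 peaks, 30.4%, as a dashed line. Right, the median position in the ZT10 list (points) with the quartiles (bars) on a reversed axis, so that the head of the list is at the top. The shares lie between 29.4% and 35.6%, and the median position moves from 6339.5 for peaks alone to 4257 in chains of 5 or more.

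DBD-independent sites made up about as much of the chains as of the list. Of the members, 345 of 1029 (33.5%, 95% Wilson interval 30.7 to 36.5%) were DBD-independent, against 30.4% of all ZT10 peaks and 30.1% (29.3 to 31.0%) of the peaks outside such chains. The share was 32.8% in chains of 3 (248 of 756, 29.6 to 36.2%), 35.6% in chains of 4 (67 of 188, 29.1 to 42.7%) and 35.3% in chains of 5 or more (30 of 85, 26.0 to 45.9%). Each of these intervals takes in the share over all ZT10 peaks except that of the members as a whole. The difference of 3.41 percentage points between members and other peaks moved with list position. With the other peaks weighted to the bins of the list that the members occupy, with the list cut into 10 bins of equal size, their share was 34.5% and the difference was -0.947 points. Weighted run by run, the difference was -0.731 points. The intervals treat peaks as independent, which members of a chain are not.

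Between the head and the end of the list the DBD-independent share differed less among members than among other peaks. In the first 3 bins, 41% of the members were DBD-independent (170 of 415, 36.3 to 45.8%), against 45.7% of the other peaks (1423 of 3116, 43.9 to 47.4%). In the last 2 bins it was 21% of the members (21 of 100, 14.2 to 30.0%), against 11.4% of the others (257 of 2253, 10.2 to 12.8%). The intervals overlap at the head of the list and do not at its end, where the 100 members came from 81 chains. Of the 10 bins, the members had the higher share in 5 and the lower share in 5. This contrast was chosen after its values were seen, and it was not tested.

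**Figure D2:**
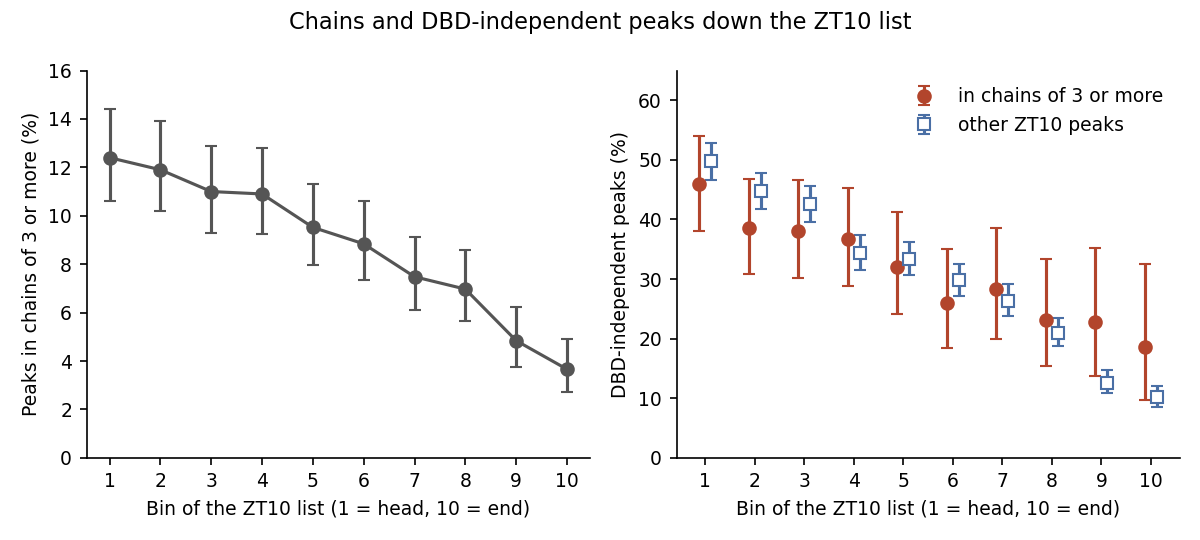
Left, the share of each bin of the ZT10 list (10 bins of equal size) that lies in chains of 3 or more peaks (%, points, 95% Wilson intervals), which is 12.4% in the first and 3.66% in the last. Right, the DBD-independent share (%, with the same intervals) of members (filled circles) and of other peaks (open squares) in each bin, 45.9% and 49.8% in the first, 18.6% and 10.2% in the last.

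Both kinds of site occurred in the chains, 33.5% of whose peaks were DBD-independent. In 217 of 315 chains (68.9%, 63.6 to 73.7%) some peaks were DBD-independent and some were not, in 84 chains (26.7%) none was, and in 14 chains (4.44%) all were. Since most chains hold 3 peaks, such counts depend on the overall share, and nothing particular to the chains was read from them. The 84 chains with none comprised 70 of 3 peaks, 13 of 4 and 1 of 5, and the 14 chains with all comprised 11 of 3 peaks and 3 of 4. At least 2 DBD-independent peaks were found in 86 chains. The median position was 5627 for the peaks of chains with none and 4039 for those of chains with all. Over the whole ZT10 list it was 6744.5 for peaks outside the DBD-independent list and 4114 for DBD-independent peaks, so the order was the same there.

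The peaks of a chain were spread over the list. The best and the lowest of any few peaks lie apart to some degree, and the spread of peaks drawn without regard to chains was not computed. The best-placed peak of a chain had a median position of 1900 (range 24 to 9610), the lowest-placed peak one of 7644, and the distance between them was 4835 positions at the median. In 115 chains (36.5%) the best peak stood in the first bin of the list, and in 24 chains no peak stood among the first 5883. In 93 chains (29.5%) every peak did. The best-placed peak was DBD-independent in 123 of 315 chains (39%, 33.8 to 44.5%), the next in 111 (35.2%, 30.2 to 40.7%) and the one after that in 86 (27.3%, 22.7 to 32.5%). The median positions of these ranks were 1900, 4070 and 7011. In the bins that hold those positions, 44.7%, 34.4% and 29.8% of the peaks outside such chains were DBD-independent. The share thus fell down the list outside the chains too, and the fall with rank was not read as particular to chains. In 31 chains at least 2 peaks stood in the same run, and in 11 of them they shared the best run. In those 11 the best-placed peak was set by coordinates, so the shares by rank include ties.

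Neighbouring peaks were of both kinds about as often as in chains of 2. Of 714 neighbouring pairs, 92 (12.9%) were both DBD-independent, 310 (43.4%) were both outside that list and 312 (43.7%) held 1 of each. In chains of 2, 543 of 1310 pairs (41.5%) held 1 of each. Such counts depend on the overall DBD-independent share, and nothing particular to the chains was read from them. A peak beside a DBD-independent neighbour was itself DBD-independent in 37.1% of cases (33.0 to 41.4%), and a peak beside another kind of neighbour in 33.5% (30.5 to 36.6%). These intervals overlap. At spacings under 1 kb the values were 31.6% (23.1 to 41.5%) and 33.3% (27.1 to 40.2%), from 1 to 5 kb they were 45.3% (38.6 to 52.2%) and 35% (30.0 to 40.4%), and from 5 to 10 kb, the class with the most pairs (309), they were 31.3% (25.3 to 38.1%) and 32.4% (28.1 to 37.0%). The order of the values thus differed between spacings. In chains of 2 the values over all spacings were 35.7% and 30.6%. Inner peaks of a chain enter more than 1 pair, and each pair was counted from both sides, so the intervals are too narrow.

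Each DBD-independent peak carries a signed distance, which was read as the distance to the nearest transcription start site (TSS) as HOMER reports it, with negative values upstream. The point it refers to is called the point below. No distance in the DBD-independent list exceeded 100 kb, so absence of a peak from that list may reflect distance. A smaller share of DBD-independent members than of the others lay within 1 kb of the point, and a larger share 1 to 10 kb from it. Within 100 bp lay 5.8% of them (20 of 345, 3.78 to 8.78%), against 12.2% of the DBD-independent peaks outside chains of 3 or more (395 of 3234, 11.1 to 13.4%). Within 1 kb lay 22% (76 of 345, 18 to 26.7%) against 30.8% (997 of 3234, 29.3 to 32.4%). Between 1 and 10 kb the order was the opposite, with 35.1% of the members (121 of 345, 30.2 to 40.2%) and 21.5% of the others (695 of 3234, 20.1 to 22.9%). Beyond 10 kb lay 42.9% (37.8 to 48.2%) and 47.7% (46.0 to 49.4%). The median absolute distance was 8.26 kb for members and 8.75 kb outside, where it was 5.74 kb in chains of 2 and 10.2 kb for peaks alone. It was 7.25 kb in chains of 3, 9.15 kb in chains of 4 and 11.8 kb in chains of 5 or more. Short distances were thus not particular to members. The intervals are apart within 100 bp, within 1 kb and from 1 to 10 kb, and they overlap beyond 10 kb. The rule itself enters this contrast. Neighbours in a chain start less than 10 kb apart and mostly share a point, so a peak at the point sets its neighbours some distance from it. The contrast was not tested.

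Members close to their point lay mostly upstream of it. Within 500 bp of the point, 57 of 64 members (89.1%, 79.1 to 94.6%) were upstream, with distances from -469 to 330 bp, and they came from 61 chains. Of the DBD-independent peaks outside such chains, 630 of 839 (75.1%, 72.1 to 77.9%) were. This value was not the same at other link distances. With chains linked at 20 kb the upstream share of members was 77.3%, and with chains linked at 5 kb it was 95.5%. These shares carry no interval, and the one at 5 kb rests on few peaks, since only 337 peaks were members there. The difference between link distances was not tested. Between 500 bp and 1 kb, 3 of 12 members were upstream. From 1 to 10 kb it was 51 of 121 (42.1%, 33.7 to 51.1%), and beyond 10 kb 57 of 148 (38.5%, 31.1 to 46.5%), against 44% and 42% outside. The median of the first value was 16 for the 64 members within 500 bp and 13 for those beyond 10 kb.

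**Figure D3:**
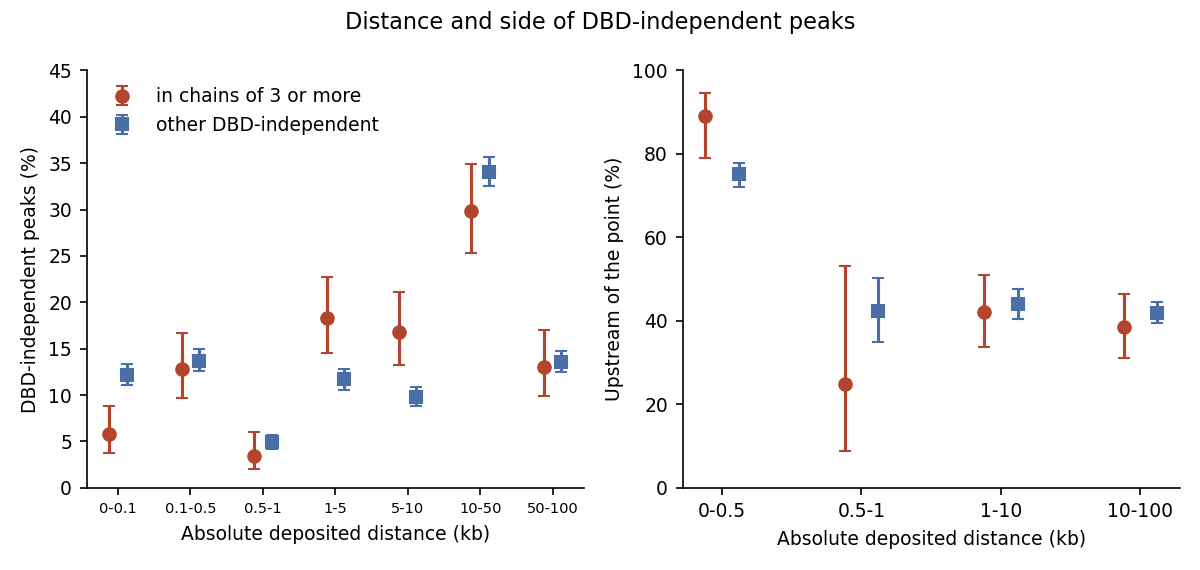
Left, the share of DBD-independent peaks (%, 95% Wilson intervals) in each interval of absolute distance from the point (kb), for members (circles) and for peaks outside chains of 3 or more (squares). Right, the share upstream of the point (%) in wider intervals of the same distance. Members lie below the others within 0.1 kb (5.8% and 12.2%) and above them from 1 to 5 kb (18.3% and 11.7%). The spacing set by the rule enters this contrast. Within 0.5 kb 89.1% of the members are upstream.

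Of the 231 chains with a DBD-independent peak, 68 (29.4%, 23.9 to 35.6%) had one within 1 kb of its point: 60 chains had 1 and 8 had 2. In 36 of the 68, the near peak with the highest first value was also the best-placed peak of its chain. Among the 231 chains, the best-placed peak was DBD-independent in 123. The count of 36 was therefore not read as a trait of near peaks. The other 147 peaks of these chains stood 5.34 kb from that near peak at the median, and 40 of them (27.2%) were DBD-independent. The share was 33.5% over all members and 30.4% over all ZT10 peaks. Only DBD-independent peaks were set aside as near peaks, which lowers the share of the rest, so it was not read as a result. The 76 near peaks had a median position of 3004.5 and a median first value of 16. The DBD-independent members farther out had a median position of 3912 and a median first value of 13.

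DBD-independent peaks of a chain nearly always referred to the same point. Peaks whose starts differ by less than 10 kb tend to have the same nearest TSS, so this follows largely from the rule. Among the 86 chains with at least 2 of them, 83 (96.5%, 90.2 to 98.8%) held peaks whose distances met exactly, to the base, at 1 position. In 76 of the 83 all DBD-independent peaks of the chain did, and in 7 a part of them. Of 114 pairs of consecutive DBD-independent peaks within chains, 104 (91.2%, 84.6 to 95.2%) shared their point. In chains of 2 it was 130 of 151 (86.1%, 79.7 to 90.7%), and the intervals overlap. The point was on the plus strand in 41 chains and on the minus strand in 42, since the sign of the distance fixes the strand once 2 peaks share a point.

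A shared point allowed every peak of the chain to be placed, those outside the DBD-independent list included. The point fell inside the chain in 36 of the 83 and outside it in 47, where the nearest peak was 16.1 kb away at the median. All peaks lay upstream in 25 chains, all downstream in 23, and on both sides in 35. In the 36 chains that span their point, 27 of 85 DBD-independent peaks (31.8%, 22.8 to 42.3%) and 6 of 45 other peaks (13.3%, 6.26 to 26.2%) lay within 1 kb of it. The median absolute distance was 3.72 kb for the DBD-independent peaks and 5.08 kb for the others. Upstream lay 44 of 85 (51.8%, 41.3 to 62.1%) and 18 of 45 (40%, 27.0 to 54.5%). All of these intervals overlap. The point was set by the DBD-independent peaks themselves, and the other peaks were measured to it and not to a point of their own. Another point nearer to one of the other peaks would not be seen here. The contrast is thus tilted toward shorter distances for DBD-independent peaks.

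**Figure D4:**
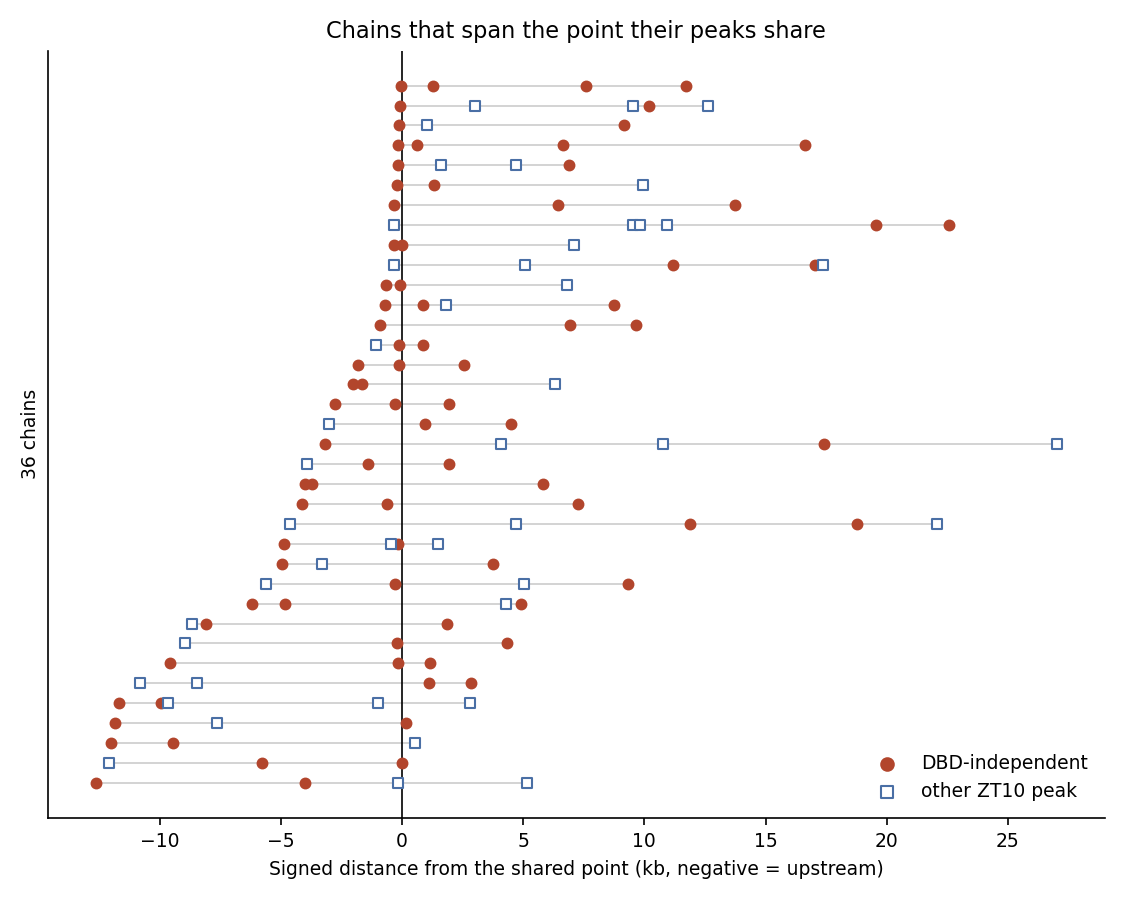
Each row is 1 of the 36 chains that span the point shared by at least 2 of their DBD-independent peaks, and the horizontal axis is the signed distance of each peak from that point (kb, negative upstream). Filled circles are DBD-independent peaks and open squares other ZT10 peaks. Of the filled circles 27 of 85 lie within 1 kb of the point, and of the open squares 6 of 45. The point was set by the filled circles, which tilts this contrast toward them.

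The longest chain held 8 peaks over 33.1 kb on chromosome 8, from 87220847 to 87253976. Only 1 of the 8 was DBD-independent, the fourth from the left, with a distance of 11226 bp, values of 7 and 6 and position 10722 in the list. The best-placed peak, at 87231272, had position 1527 (run 97). The other 6 stood between positions 5456 and 9878, so no other peak of this chain stood in the first 4 bins of the list. The median position of its peaks, 8425, was the lowest-placed median among the chains of 6 or more.

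Both chains of 6 peaks lay on chromosome 11. In the first, from 90110385 to 90133455, a peak outside the DBD-independent list and a DBD-independent peak stood side by side in the list at positions 882 and 883, in the same run (run 88). The DBD-independent one, 19547 bp from its point, had values of 25 and 20, and the other DBD-independent peak, with values of 7 and 6, referred to the same point at 22590 bp. Set against that point, the first peak of the chain lay within 1 kb of it, and the remaining 3 lay downstream. In the second, from 100242972 to 100259305, the only DBD-independent peak closed the chain on the right, 126 bp upstream of its point (distance -126 bp), with values of 7 and 7. Its positions ran from 3940 to 10899, so none of its 6 peaks stood in the first 3 bins of the list.

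Among the 9 chains of 5 peaks that the naming rule took in, the one with the best-placed peak lay on chromosome 19, from 34818737 to 34833371. Its DBD-independent peak at 34831459 had position 105 and values of 51 and 35, with its point -9932 bp away on the deposited scale, and a second at -11695 bp had values of 18 and 15. A peak outside the list, at position 6383, began only 267 bp before the strongest one. On chromosome 9, from 57509331 to 57536166, the DBD-independent peaks had positions 337 and 3911, distances of 18759 and 11901 bp, and second values above the first (28 and 32, then 11 and 16). Also on chromosome 9, the chain from 65141963 to 65154810 began with a DBD-independent peak at its point (distance -65 bp, values 26 and 24, position 752). The best-placed peak of that chain, at position 563, was at its other end and was not DBD-independent. With a median position of 922 it was the highest-placed of the 12 longest chains.

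Both named chains of 5 on chromosome 3 held a single DBD-independent peak. From 21973862 to 21990856 it was the best-placed peak, at position 502, with values of 25 and 23 and a distance of -289 bp. From 81774113 to 81799565 it had position 3166, values of 18 and 16 and a distance of 5463 bp, and the best-placed peak, at position 771, was of the other kind. On chromosome 15, from 85989479 to 86019806, gaps of at least 6650 bp separated all 5 peaks. The 2 DBD-independent ones lay on opposite sides of their shared point, at 17415 and -3160 bp. On chromosome 7, from 120394482 to 120414184, all 3 DBD-independent peaks shared a point far outside the chain, at distances of 43814, 53297 and 54405 bp, and in each the second value exceeded the first.

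The chain on chromosome 17, from 13743539 to 13746069, packed 5 peaks into 2.53 kb, with no gap over 991 bp. Its 4 DBD-independent peaks lay in a row downstream of 1 point, at 966, 1427, 1876 and 2867 bp, with first values of 14, 10, 21 and 25 and second values of 19, 9, 22 and 17. All 5 peaks stood between positions 1249 and 4257. The chain on chromosome 5, from 120119053 to 120136342, held no DBD-independent peak. Its best-placed peak had position 2227, and 3 of the other 4 stood at positions 8870, 8871 and 8872, in 1 run (run 126), so their order there says nothing of strength. The 4 further chains of 5 peaks had their best-placed peaks between positions 2370 and 3031, and 9 of their 20 peaks were DBD-independent.

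**Figure D5:**
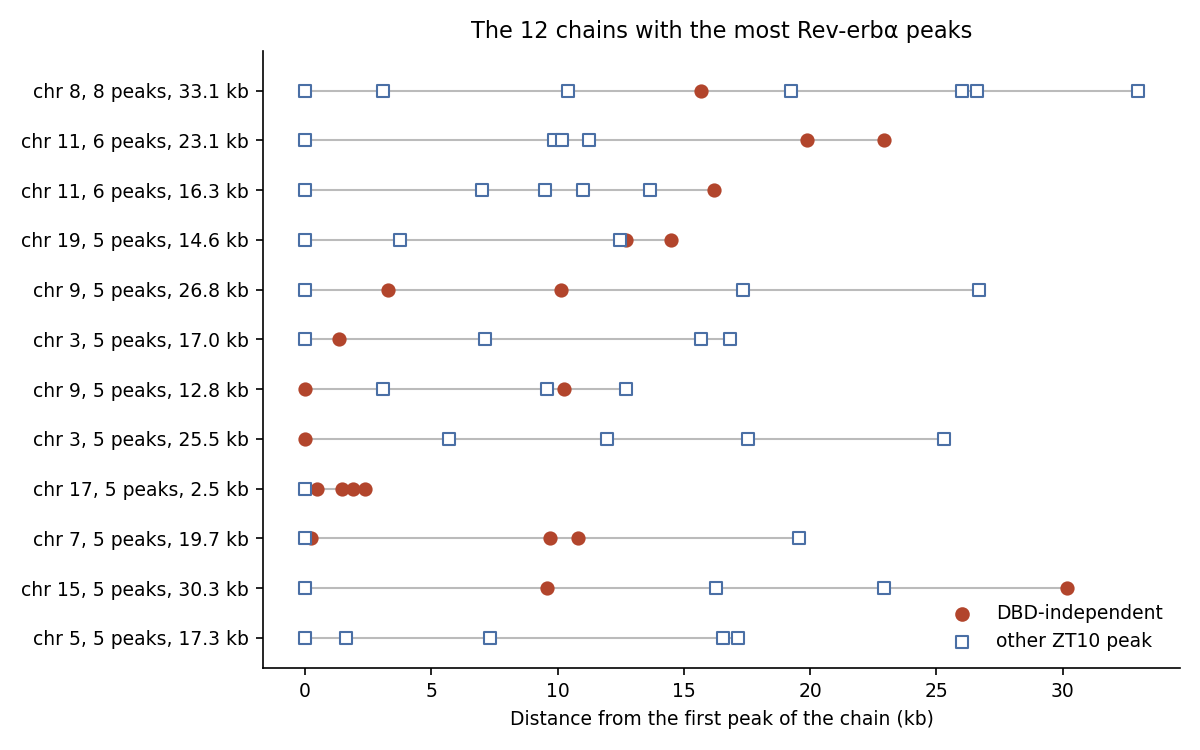
The 12 chains with the most peaks, 1 per row with its chromosome, number of peaks and span, and the distance of each peak from the first peak of the chain (kb). Filled circles are DBD-independent peaks and open squares other ZT10 peaks. The chain on chromosome 8 spans 33.1 kb with 1 DBD-independent peak of 8, and the chain on chromosome 17 holds 4 of 5 within 2.53 kb.

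The only 3 chains of 4 peaks that were DBD-independent throughout each referred all their peaks to 1 point. On chromosome 5, from 87509782 to 87521679, distances were 11724, 7605, 1280 and -24 bp. The peak farthest from the point had the highest values (52 and 40, position 161), and the peak at the point had 16 and 12 (position 2236). On chromosome 2, from 147856006 to 147872928, distances were 16625, 6662, 612 and -148 bp, and the peak nearest the point had the highest values (32 and 28, position 552). The peak at 6662 bp followed with 24 and 25 (position 735). On chromosome 11, from 101565497 to 101577030, all 4 peaks lay upstream, between -28699 and -17315 bp, with first values of 7, 23, 12 and 5. These chains differed, then, in whether the peak of highest value was the one nearest the point.

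The best-placed chains of 3 that were DBD-independent throughout lay on chromosomes 9 and 7. On chromosome 9, from 119207025 to 119218520, all distances were downstream, at 24446, 16394 and 13100 bp, and the middle peak had the highest values (46 and 39, position 227). On chromosome 7, from 15108104 to 15116127, the peaks at -29903 and -32482 bp shared a point, while the third, at 31468 bp, referred to another. Their first values were 29, 19 and 10. Over all 14 chains of this kind the first value ran from 4 to 52 with a median of 13, the same as over all DBD-independent members.

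Of the chains of 4 without any DBD-independent peak, those with the best-placed peaks were as follows. The chain on chromosome 19 from 46164940 to 46174846 had peaks at positions 106, 1130, 1334 and 8107. The chain on chromosome 7 from 91813278 to 91824901 had its best-placed peak at position 748 and the other 3 between 6564 and 8322. On chromosome 2, from 68967011 to 68984308, positions were 1342, 2342, 5318 and 9563. On chromosome 16, from 21781502 to 21788100, 3 peaks began within 1503 bp and the fourth 6449 bp from the first, with positions of 4882, 6741, 1404 and 6332. These 4 chains were named for their best positions among the 13 of their size. Over all 84 chains with no DBD-independent peak the best-placed peak had a median position of 2261.5. It was 1789 in mixed chains and 1437.5 in chains with all peaks DBD-independent. DBD-independent peaks stood nearer the head over the whole list too.

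The densest chains held 3 peaks in less than 1 kb. On chromosome 16, from 15550529 to 15551208, mean spacing was 265 bp, and the middle peak was DBD-independent, 43724 bp from its point, with values of 4 and 4. On chromosome 14, from 68333446 to 68334331, mean spacing was 368 bp, and again the middle peak was DBD-independent, here at -123 bp with values of 20 and 17. It was also the best-placed of the 3, at position 1118, with the others at 3291 and 4528. On chromosome 7, from 91754225 to 91755112, starts were 175 and 563 bp apart and no peak was DBD-independent. The middle peak was thus the DBD-independent one in both of the densest chains that had any. No pattern was read from so few chains. Over all chains of 3, the DBD-independent share was 37.7% for middle, 28.6% for left and 32.1% for right peaks, with overlapping intervals.

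The deposited values of DBD-independent members were like those of the rest of that list. What these 2 whole numbers, deposited by the authors, measure is not stated, and they were treated as scores of a peak. The first value had a median of 13 (quartiles 9 and 20, range 3 to 72) for members and 12 (quartiles 8 and 19, range 1 to 103) outside chains of 3 or more. The second value had medians of 13 and 11. Divided by the first, the second value had a median of 0.889 in both, and the second was below the first at 60.3% of members (208 of 345, 55.0 to 65.3%) and at 60.5% of the others (58.8 to 62.2%). Over the whole DBD-independent list this ratio ran only from 0.671 to 1.47, which left its parts little room to differ. The likeness of the median ratios was therefore not read as a result. The highest first value of all 3579 DBD-independent peaks, 103, was outside the chains.

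The 5 members with the highest first values were picked for those values, so their rank within their chains follows from the choice. The highest values, 72 and 51, belonged to the peak from 59592166 to 59592315 on chromosome 16, which had position 36 and a distance of -36662 bp. The DBD-independent peak beside it referred to the same point, at -39054 bp, with values of 6 and 5. On chromosome 6, at 134467313 to 134467462, values were 70 and 54 at position 24, the best of all members, with a distance of 49544 bp. The 3 other peaks of that chain stood between positions 1889 and 3185. On chromosome 7, at 15023973 to 15024122, values were 66 and 59 at position 56, 147 bp upstream of the point (distance -147 bp), and a neighbour at -1256 bp had 17 and 14. On chromosome 18, at 53970687 to 53970836, values were 55 and 49 and the distance was -51006 bp, and neither other peak of the chain was DBD-independent. The last of the 5 was the peak with values of 52 and 40 in the chain on chromosome 5 described above. Of these 5 peaks, 1 lay within 1 kb of its point.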

How the data were processed

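ChIP-seq for Rev-erbα was made in 6 liver samples, grouped by title into 3 WT and 3 HNF6 KO. Bowtie and HOMER were used and coordinates are in mm9, per the submitters' processing notes; for versions, settings and pooled samples the entry is: not given in the sources used here. The deposited ZT10 list holds chromosome, start and end only. The deposited DBD-independent list adds an identifier, a signed distance in bp and 2 unlabelled whole numbers, which were treated as a score given by the authors. All 3579 of its peaks matched a ZT10 peak exactly, and every peak was 150 bp wide.

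Peaks were sorted by chromosome and start and chained where starts differed by less than 10000 bp. A shared point was the peak centre minus (plus strand) or plus (minus strand) the distance, matched with a tolerance of 0 bp. Coordinates are printed from 1. Shares carry 95% Wilson intervals, which cover counting error only. No test was made: the lists hold no replicate, depth is unknown, and peaks of a chain are not independent. The planned motif counts and gene lists need an mm9 genome or annotation and were not made. Named chains were up to 12 of at least 5 peaks, the 5 longest each with all or no peaks listed, and the 3 with the shortest mean gap, ties going to the best position; named peaks were the 5 members of highest first value. Members, lists and rules were chosen with earlier results of these data known. Alternatives were other link distances, chain sizes, weightings and parts of the list. Scripts used Python 3.11.15, numpy 2.4.6, pandas 2.3.3, SciPy 1.17.1 and matplotlib 3.10.9, and were tested on simulated data.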

Additional observations from a re-analysis of the deposited data

How the results depend on the processing

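Of 30 alternatives to 7 results, 19 stayed within the interval of the main value (counts within 1.5 times). The number of chains was 109 with a link distance of 5 kb, 674 with 20 kb and 113 in the first 5883 peaks of the list, as these settings link fewer or more peaks by construction. The median position of members was 4779 at 20 kb. With chains formed anew from the first 5883 peaks only, the DBD-independent share was 40% in chains and 40.7% in the other peaks. These are not the same members as above, of whom 38.6% in the first 5 bins were DBD-independent, against 40.9% of the others. The share of members near the point was 31.3% within 2500 bp, a wider window. The excess of the DBD-independent share over other peaks, 3.41 percentage points, changed sign to -0.947 with other peaks weighted to the bins of the list. Weighted to its runs it was -0.731, and with chains formed anew from the first 5883 peaks it was -0.721. The upstream share within 500 bp was 95.5% at 5 kb and 77.3% at 20 kb, without intervals, and neither the difference nor its cause was tested. The weightings, the run positions and the alternatives to the excess and to the upstream share were chosen after seeing the data. Of 24 named chains, 19 held fewer peaks at 5 kb and 3 held more at 20 kb. No paired analysis was possible because neither list separates the livers, and likewise no replicate could be left out. Motif alternatives were not run without an mm9 genome.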

Other observations

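The share of a chromosome's peaks that lay in chains of 3 or more was 12% on chromosome 19 (53 of 441, 95% Wilson interval 9.31 to 15.4%), 11.7% on chromosome 8 (72 of 615, 9.40 to 14.5%) and 5.11% on chromosome 17 (28 of 548, 3.56 to 7.29%), the lowest share on an autosome. Chromosome 11 held the most chains, 31, with 102 peaks. The X chromosome had 24 of its 206 peaks in 7 chains (11.7%, 7.96 to 16.7%). Chromosome lengths were not used, and these shares were not tested.

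In chains of 3 the place of a peak said little of its rank. The best-placed peak was the left one in 86 chains, the middle one in 84 and the right one in 82. The DBD-independent share was 37.7% for the middle peak (95 of 252, 31.9 to 43.8%), 28.6% for the left (72 of 252, 23.3 to 34.4%) and 32.1% for the right (81 of 252, 26.7 to 38.1%), with overlapping intervals.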
